A study of Rattus norvegicus with 9 samples.

Results

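Chemokine ligand genes were examined in the mononuclear blood cells (PBMC, the lymphocytes and monocytes) of Wistar rats. The 10 genes were Ccl2, Ccl3, Ccl4, Ccl5, Ccl6, Ccl7, Cxcl1, Cxcl2, Cxcl16 and Xcl1. All probes whose gene name, or whose RefSeq transcript, belonged to one of these genes were taken from the array. Of 41012 probes, 10 probes matched, and they covered 9 of the 10 genes, with 2 probes for Ccl7. Cxcl16, a transmembrane chemokine that also acts as a scavenger receptor, had no matching probe and was not analysed here. Of the 9 genes, 8 passed the detection filter, which asked for a signal well above background in the animal's dye on at least 4 arrays. Across the array 25808 probes passed it.

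The control group held 4 rats (replicates 1, 4, 7 and 13) kept on standard chow. The cafeteria group held 5 rats (replicates 1, 4, 7, 10 and 13) that were given an energy-dense, fatty cafeteria diet on top of chow, starting at 2 months of age and lasting 4 months. Every rat was a 6-month-old male bled from the saphenous vein in the fed state, and its PBMC were separated on a Ficoll gradient. A further control animal was left out by the authors because it gave little RNA. Each rat had its own 2-colour Agilent rat array, on which its Cy5-labelled RNA was set against one Cy3-labelled reference, a pool of RNA from all the groups. Values below are log2 ratios of animal over reference. The dyes had the same orientation on every array, so dye bias of a probe stays in its ratios. A ratio of 0 therefore need not be the level in the pool. A ratio compares the same probe between animals and sets no gene's level against another's. The p-values reflect the spread between these 9 animals.

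Chemokines are small secreted proteins that bind G protein-coupled receptors and steer the movement of white blood cells. They are named by the spacing of their first cysteines, as CC (Ccl), CXC (Cxcl) and C (Xcl) ligands. Ccl2 and Ccl7 bind Ccr2 and draw monocytes out of the bone marrow and into tissue, and the Ccl2 axis has been widely studied in adipose tissue in obesity. Ccl3, Ccl4 and Ccl5 are made by activated monocytes and by cytotoxic T and NK cells, while Ccl6 is a rodent CC chemokine made by myeloid cells. Cxcl1 and Cxcl2 bind Cxcr2 and recruit neutrophils, and Xcl1 is made by NK and CD8 T cells and acts on Xcr1-bearing dendritic cells.

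Many inflammatory chemokine genes are switched on through NF-kB. A RefSeq table of promoters on the GRCr8 build listed 6 of the 10 genes, namely Ccl6, Ccl7, Cxcl1, Cxcl2, Cxcl16 and Xcl1. The 250 bases before the start of Cxcl1 and of Cxcl2 are shown because these genes lie close together, because their ratios had the highest correlation over the animals, and because they were the 2 genes of the 6 with a match to the NF-kB consensus. Cxcl1 was read from chr14:17479322-17479571 and Cxcl2 from chr14:17467256-17467505, both on the minus strand and 5′ to 3′, with the bases of the matches in capitals.
Cxcl1: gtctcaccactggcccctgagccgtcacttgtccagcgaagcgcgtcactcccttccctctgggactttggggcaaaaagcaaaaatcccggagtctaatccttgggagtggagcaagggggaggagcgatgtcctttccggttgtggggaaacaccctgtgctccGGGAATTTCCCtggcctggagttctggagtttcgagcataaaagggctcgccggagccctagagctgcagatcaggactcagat
Cxcl2: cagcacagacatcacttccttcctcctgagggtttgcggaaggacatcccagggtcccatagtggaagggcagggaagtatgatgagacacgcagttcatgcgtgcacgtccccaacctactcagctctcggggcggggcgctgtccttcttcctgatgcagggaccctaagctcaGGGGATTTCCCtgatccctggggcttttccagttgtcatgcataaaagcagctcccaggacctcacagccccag
The match in Cxcl1 began 84 bases before the start and read GGGAATTTCC, and it overlapped a further match on the other strand. In Cxcl2 it began 74 bases before the start and read GGGGATTTCC, with overlapping matches on both strands. Of 33469 promoters of the same length, 1185 (3.54%) held the consensus on either strand. Ccl7 held an AP-1 motif (TGANTCA, either strand), which 6.34% of promoters hold, and Ccl6 and Ccl7 held TATAAA on the gene's strand, which 8.06% hold. These are matches of letters in a window.

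No chemokine ligand passed the adjusted threshold of 0.05 in the comparison of cafeteria with control rats. The limma adjusted p was 0.997 for each of the 8 genes tested, and 2 of 25808 probes (0.00775%) passed across the array. Ccl2 had a lower mean in cafeteria rats, by a log2 difference of -0.79 (SE 0.27), and was the 1 gene of the 8 with an unadjusted limma p under 0.05. Across all probes tested, 4.4% had such a p, 2.86% on the lower and 1.54% on the higher side. Cafeteria means were higher for Ccl3, Ccl4, Ccl5 and Ccl6 and lower for Ccl2, Cxcl1, Cxcl2 and Xcl1, while 54.3% of all probes were higher and 45.7% lower. With slide as a fixed block, 2 in place of 4 were higher. Only slides 3 and 5 held both groups, so every fit with this block rests on 1 pair of animals from each. The median difference of the 8 genes was 0.031, against 0.0092 over all probes. The groups overlapped for all 8, and over all probes only 1.26% separated the groups, so this does not set the ligands apart. Exact permutation p-values given below for single genes are 2-sided, run over the 126 splits of the 9 animals, unadjusted, and were added after the data were seen; the smallest that 4 against 5 animals allow is 0.00794.

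**Figure D1:**
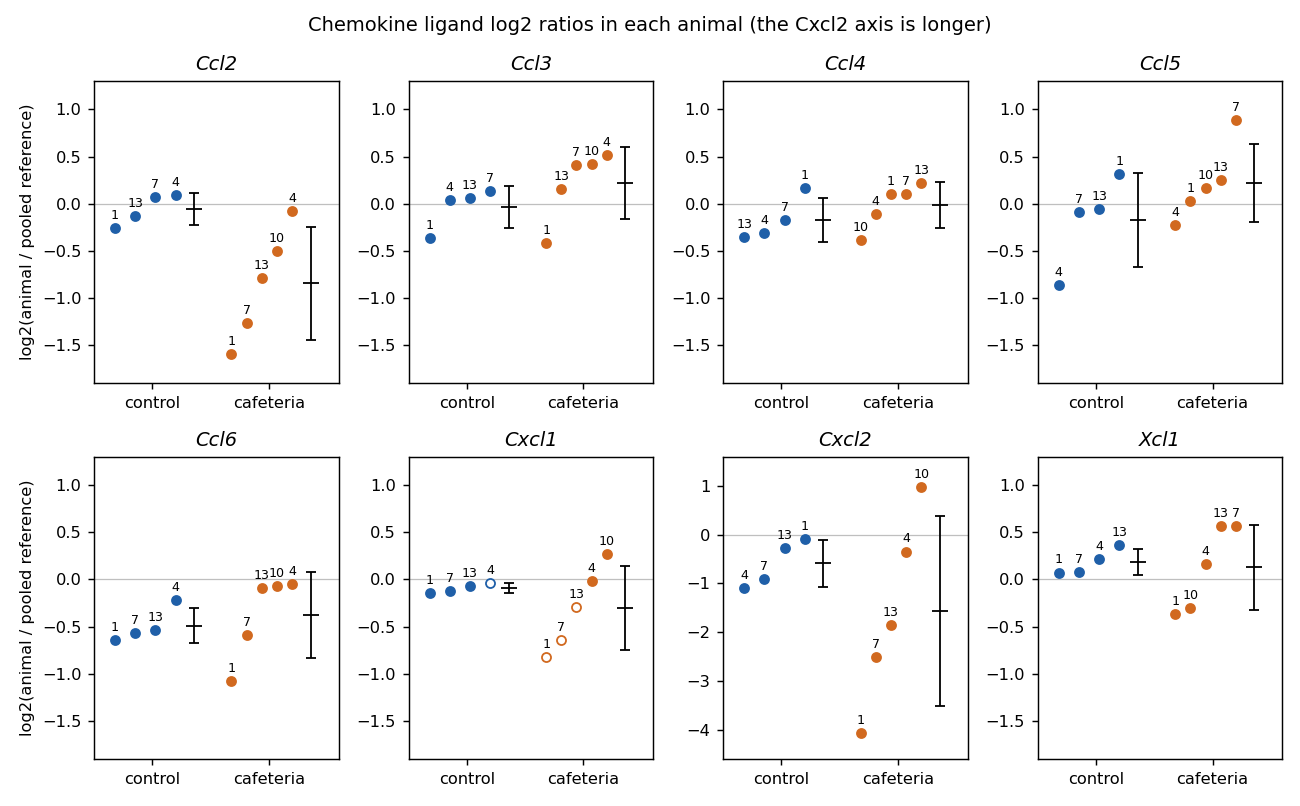
Log2 ratio of animal over pooled reference (y axis) for the 8 chemokine ligands tested, in 4 control and 5 cafeteria rats, with replicate numbers at the points and bars for the mean and SD of each group. Open points mark arrays on which the animal's signal was not well above background, which occurred for Cxcl1 only. Ccl2 and Cxcl2 show the lowest values in cafeteria 1 and cafeteria 7.

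Ccl2, the main monocyte attractant, was read by a probe printed in 10 spots at chr10:70257919-70257978 (rn4, plus strand). Its log2 ratio was -0.25 in control 1, 0.09 in control 4, 0.07 in control 7 and -0.13 in control 13. It was -1.59 in cafeteria 1, -0.08 in cafeteria 4, -1.26 in cafeteria 7, -0.50 in cafeteria 10 and -0.78 in cafeteria 13. All 5 cafeteria rats lay below the control mean and 4 of them below the lowest control, while cafeteria 4 lay within the control range. The control mean was -0.055 ± 0.17 (SD, n = 4) and the cafeteria mean -0.84 ± 0.60 (SD, n = 5). The difference of -0.79 had a 95% interval of -1.38 to -0.19 in limma, equal to 1.73-fold lower in cafeteria rats, with adjusted p = 0.997. The 2-sided exact permutation test of this gene alone gave p = 0.0476. The spread was wider among cafeteria than among control rats, and the difference did not pass the correction over all probes.

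Spots of the Ccl2 probe agreed closely within an array. The SD over spots ran from 0.014 in control 4 to 0.12 in cafeteria 1, far less than the spread between animals. All 10 spots were well above background on every array, and after outlier spots were left out 8 remained in control 1 and 9 in cafeteria 13. The background-subtracted Cy5 intensity was 76.3 in cafeteria 1, 143 in cafeteria 7 and 182 in cafeteria 13, against 324 to 562 in controls. Cafeteria 4 and cafeteria 10 gave 340 and 323. A separate probe in the 5′ flank of Ccl2, which starts 2034 bases before the Ccl2 probe, was well above background on 0 of 9 arrays.

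**Figure D2:**
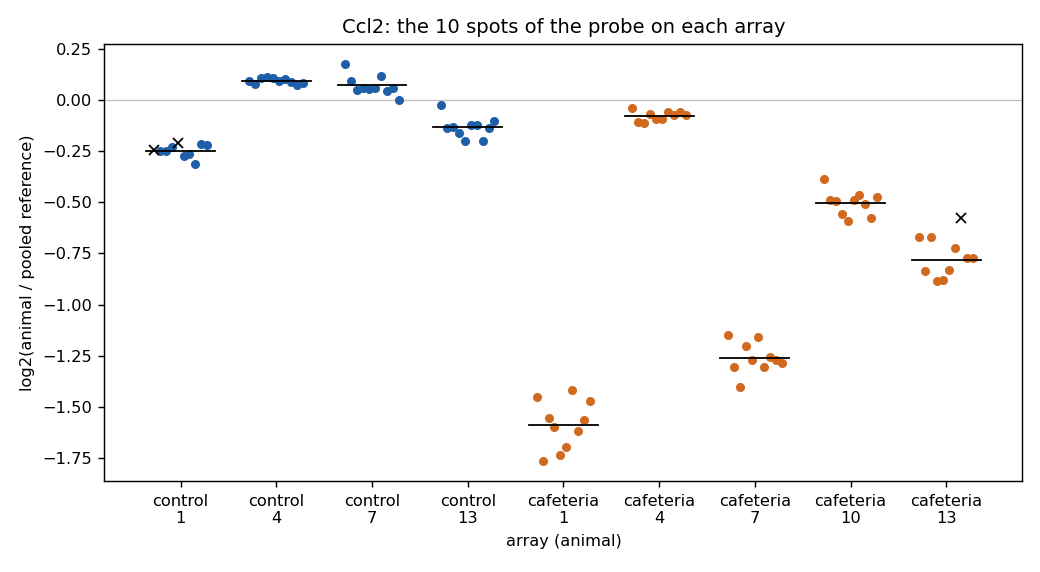
Log2 ratio of animal over reference (y axis) of each of the 10 Ccl2 spots on the 9 arrays (x axis), with a line at the mean of the spots kept and crosses for spots left out as outliers. The spots of cafeteria 1 lie between -1.77 and -1.42 and those of cafeteria 7 between -1.40 and -1.15, below every control spot.

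Slides 3 and 5 each carried a control and a cafeteria rat. Within slide 3, cafeteria 1 differed from control 1 by -1.34 for Ccl2, and within slide 5 cafeteria 10 differed from control 13 by -0.37. With slide as a fixed block the Ccl2 difference, which rests on these pairs alone, was -0.85 (SE 0.26). That SE is moderated by limma over all probes and does not measure the spread between the pairs. Leaving out single animals moved the unblocked Ccl2 difference between -0.98 without cafeteria 4 and -0.60 without cafeteria 1. On the log2 scale of the authors' deposited values, Ccl2 was 8.47 to 9.29 in controls and 6.92 to 8.64 in cafeteria rats, again with cafeteria 1 lowest and cafeteria 4 highest of its group.

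Monocyte markers were low in cafeteria 1 and cafeteria 7, the lowest animals for Ccl2, but not in every animal with low Ccl2. Of 15 monocyte genes listed, 12 were tested and 10 had a lower cafeteria mean, where 45.7% of all probes were lower. None of the 12 had an unadjusted limma p under 0.05. Their mean log2 ratio was -0.65 in cafeteria 1 and -0.50 in cafeteria 7, and the other cafeteria rats lay between -0.13 and 0.23. Controls lay between -0.26 and 0.16. In cafeteria 13 and cafeteria 10 Ccl2 was also below every control. For these markers cafeteria 13 stood within the control range at -0.13, and cafeteria 10 was the highest of all animals at 0.23. Cd163 and Msr1, macrophage scavenger receptors, were below the filter. Among the markers, Lyz2 (lysozyme) differed between the groups by -0.15 (SE 0.52) and Ctss (cathepsin S) by 0.14 (SE 0.098). In a mixed cell preparation fewer monocytes and less RNA per monocyte cannot be told apart, and the part of the marker shift in the Ccl2 values was not tested.

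Ccl7, the other Ccr2 ligand, lies next to Ccl2 and had probes at chr10:70268674-70268733 and chr10:70268643-70268702 (rn4). Neither probe was well above background in either dye on any of the 9 arrays, so no ratio is given for it. It was not detectable with these probes in either group.

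Ccl3 (chr10:71744611-71744670) and Ccl4 (chr10:71760267-71760326) encode macrophage inflammatory proteins, and both were well above background on all 9 arrays. Ccl3 was -0.36 in control 1, 0.04 in control 4, 0.14 in control 7 and 0.06 in control 13. It was -0.42 in cafeteria 1, 0.52 in cafeteria 4, 0.41 in cafeteria 7, 0.42 in cafeteria 10 and 0.16 in cafeteria 13. Thus 4 of 5 cafeteria rats lay above the highest control, and the fifth, cafeteria 1, lay below the lowest. The Ccl3 means were -0.03 ± 0.22 (SD, n = 4) and 0.22 ± 0.38 (SD, n = 5). The difference was 0.25 (SE 0.19, limma adjusted p = 0.997, exact permutation p = 0.325). Leaving out cafeteria 1 gave 0.41 (SE 0.12, limma adjusted p = 0.656), and leaving out control 1 gave 0.14.

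Ccl4 was 0.16 in control 1, -0.31 in control 4, -0.17 in control 7 and -0.35 in control 13. In cafeteria rats it was 0.10 in cafeteria 1, -0.11 in cafeteria 4, 0.10 in cafeteria 7, -0.39 in cafeteria 10 and 0.22 in cafeteria 13. The groups lay over nearly the same range. The Ccl4 difference was 0.16 (SE 0.14, limma adjusted p = 0.997, exact permutation p = 0.365), and with slide as a fixed block it was -0.049. Leaving out control 1 or cafeteria 10 gave 0.27 or 0.25, and leaving out control 13 or cafeteria 13 gave 0.094 or 0.096.

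Ccl5 (RANTES), stored by cytotoxic T and NK cells and by platelets, gave a background-subtracted Cy5 intensity of 106616 to 199990 and was not saturated on any array. The coordinates in the files for its probe were chr10:71606089-71609018 on the minus strand. Its log2 ratio was 0.32 in control 1, -0.86 in control 4, -0.09 in control 7 and -0.05 in control 13. It was 0.03 in cafeteria 1, -0.23 in cafeteria 4, 0.89 in cafeteria 7, 0.17 in cafeteria 10 and 0.25 in cafeteria 13. Control 4 was the lowest animal and cafeteria 7 the highest. The difference between the groups was 0.39 (SE 0.26, limma adjusted p = 0.997, exact permutation p = 0.286), and with slide as a fixed block it was -0.036. Leaving out single animals moved the unblocked difference between 0.16, without control 4, and 0.56. Without cafeteria 7 it was 0.23.

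The same animals stood at the ends for markers of cytotoxic T and NK cells. The mean over the 15 genes of that list was -0.45 in control 4, the lowest, and 0.27 in cafeteria 7, the highest. The other 7 animals lay between -0.25 and 0.05. Of this list, 10 genes had a higher and 5 a lower cafeteria mean, with differences from -0.33 to 0.49. Over all probes 54.3% were higher. The brightest genes of the list, the granzymes Gzma and Gzmm, differed between the groups by 0.44 (SE 0.28) and 0.33 (SE 0.17). Markers of platelets ran the other way at these ends, with a mean over 9 genes of 1.08 in control 4 and -0.81 in cafeteria 7. In this list the brightest genes, Pf4 and Treml1, differed between the groups by -0.41 (SE 0.39) and -0.26 (SE 0.36). The part of these markers in the Ccl5 values was not tested.

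Ccl6 (chr10:71660234-71660293, minus strand) was -0.64 in control 1, -0.22 in control 4, -0.57 in control 7 and -0.53 in control 13. In cafeteria rats it was -1.08 in cafeteria 1, -0.04 in cafeteria 4, -0.59 in cafeteria 7, -0.07 in cafeteria 10 and -0.09 in cafeteria 13. Every animal had a negative ratio, which may hold dye bias of the probe. Cafeteria 1 was lowest, and 3 cafeteria rats lay above all controls. The difference was 0.12 (SE 0.21, limma adjusted p = 0.997, exact permutation p = 0.659). It was 0.29 without cafeteria 1, 0.21 without control 4, and 0.033 to 0.065 without cafeteria 4, 10 or 13 or control 1. With slide as a fixed block it was 0.014.

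Cxcl2 (MIP-2), a ligand that attracts neutrophils, varied most. Its probe lay at chr14:18677236-18677295 (minus strand), and the Cy5 intensity minus background ran from 65.6 in cafeteria 1 to 6069 in cafeteria 10. The log2 ratio was -0.09 in control 1, -1.10 in control 4, -0.90 in control 7 and -0.26 in control 13. It was -4.06 in cafeteria 1, -0.34 in cafeteria 4, -2.51 in cafeteria 7, 0.99 in cafeteria 10 and -1.86 in cafeteria 13. The cafeteria group therefore held both the highest animal and the 3 lowest animals. Its SD over the 9 animals exceeded that of 99.96% of the probes tested.

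The Cxcl2 means were -0.59 ± 0.49 (SD, n = 4) in control and -1.56 ± 1.95 (SD, n = 5) in cafeteria rats. The difference was -0.97 (SE 0.85), with a 95% interval of -2.87 to 0.93 and an exact permutation p = 0.389 (limma adjusted p = 0.997). Within slide 3 the difference was -3.97, and within slide 5 it was 1.25. Leaving out cafeteria 1 gave -0.34, and leaving out cafeteria 10 gave -1.61.

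Cxcl1, the closest relative of Cxcl2 among the members, lay beside it at chr14:18690468-18690527. It was dim, and was well above background in 3 of 4 control and 2 of 5 cafeteria rats. The ratios were -0.14, -0.03, -0.12 and -0.06 in controls 1, 4, 7 and 13. They were -0.82, -0.01, -0.64, 0.27 and -0.29 in cafeteria rats 1, 4, 7, 10 and 13, of which numbers 1, 7 and 13 and also control 4 were not well above background. The reference dye was well above background on all 9 arrays. The control ratios fell within a narrow band, and the cafeteria ratios lay on both sides of it. The background-subtracted Cy5 intensity of the controls ran from 18.3 in control 4 to 79.2 in control 13. At such low intensities the band does not show that the controls were alike. The difference was -0.21 (SE 0.19, limma adjusted p = 0.997, exact permutation p = 0.365), and within slides 3 and 5 it was -0.67 and 0.33. It was -0.85 with Cy5 alone and -0.81 with the scanner log ratio. Leaving out cafeteria 1 or cafeteria 7 gave -0.078 or -0.12, and leaving out cafeteria 10 gave -0.35. At this signal a ratio below the reference is only an upper bound in the undetected animals.

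Neutrophil markers were detected in part. Of 12 neutrophil genes with a probe, Mmp8, Mpo, Ltf, Cxcr2 and Fpr1 were not detected on enough arrays. The mean over the other 7 was -0.28 in cafeteria 1 and -0.37 in cafeteria 7, and between -0.22 and 0.09 in the remaining animals. S100a9, a protein of neutrophils and monocytes, differed by -0.33 (SE 0.24), and Alox5ap by 6.89e-05 (SE 0.19). The part of neutrophils or monocytes in the Cxcl1 and Cxcl2 values was not tested.

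Xcl1 (lymphotactin, chr13:80691299-80691358, minus strand) was 0.07 in control 1, 0.22 in control 4, 0.08 in control 7 and 0.36 in control 13. It was -0.36 in cafeteria 1, 0.17 in cafeteria 4, 0.57 in cafeteria 7, -0.30 in cafeteria 10 and 0.57 in cafeteria 13. The controls lay together and the cafeteria rats on both sides of them. The difference of -0.05 (SE 0.20, limma adjusted p = 0.997, exact permutation p = 0.794) changed sign over the settings tried. With slide as a fixed block, which rests on the pairs of slides 3 and 5, it was -0.55 (SE 0.14, limma adjusted p = 1.00). Within slide 3 it was -0.44 and within slide 5 it was -0.66.

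**Figure D3:**
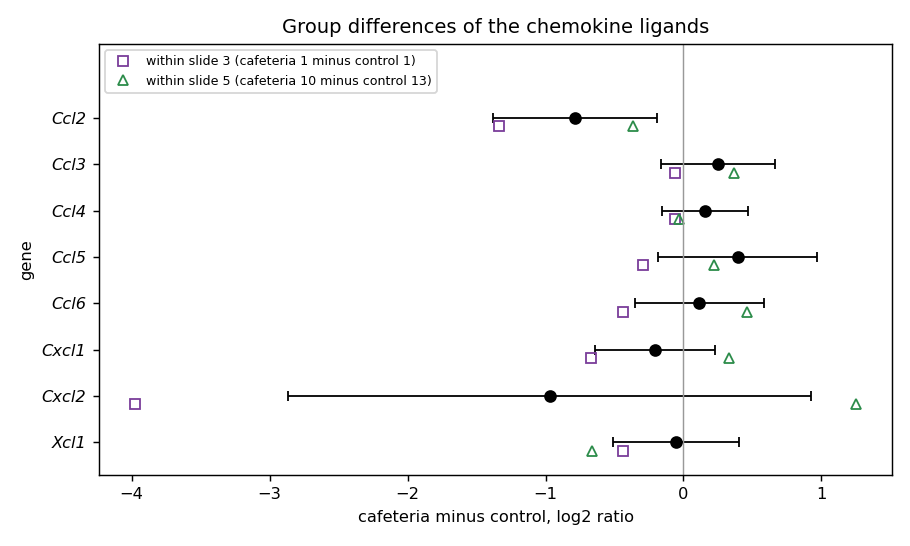
Cafeteria minus control log2 difference (x axis) for the 8 genes (y axis), with limma's 95% interval as the bar, and the differences within slides 3 and 5 as open symbols, each from 1 pair of animals. The interval of Ccl2 (-1.38 to -0.19) lies below 0 and those of the other 7 genes span 0; the within-slide values of Cxcl2 lie far apart, at -3.97 and 1.25.

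The ligands varied between animals more than most probes tested, which was not particular to them. Their SDs over the 9 animals ran from 0.24 for Ccl4 to 1.50 for Cxcl2. Those of the cell type markers ran from 0.043 for Epor to 0.86 for Lyz2. The SD over the 9 animals was above that of 98.9% of tested probes for Ccl2 and 97.5% for Ccl5. For Ccl3, Ccl4, Ccl6, Cxcl1 and Xcl1 the corresponding figures lay between 83.8% and 93.8%. Of the 28 pairs of members, 17 had a positive correlation over the animals. All animals shared the same reference pool, and these correlations were computed after the values had been seen.

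Cxcl1 and Cxcl2 had the highest correlation of the 28 pairs, with r = 0.95 and rho = 0.75. It is given as a description without a test, since the Cxcl1 ratio was only an upper bound in control 4 and cafeteria 1, 7 and 13, which include the lowest animals for both genes. With group means removed r was 0.95, and without cafeteria 1 and cafeteria 7, the animals farthest out, it was 0.85. Cxcl1 and Cxcl2 are close in sequence, and whether their probes share signal was not tested.

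Ccl2 gave r = 0.76 with Cxcl2 (exact permutation p = 0.0163, adjusted over 28 pairs p = 0.136) and rho = 0.42 (exact permutation p = 0.270), both 2-sided. Without cafeteria 1 and cafeteria 7, r was 0.04, so the relation rests on those animals. Leaving out single animals moved r between 0.52 and 0.90, with exact permutation adjusted p between 0.0387 and 0.404. The highest r came without cafeteria 10, in which Cxcl2 was high and Ccl2 was not. Leaving out the animal that departs from a relation raises r by that choice, so this value is no support for it. With Cxcl1, under the same limit on its dim values, Ccl2 gave r = 0.82 and rho = 0.67, and r was 0.11 without cafeteria 1 and cafeteria 7. No pair had an adjusted p of rho under 0.05.

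**Figure D4:**
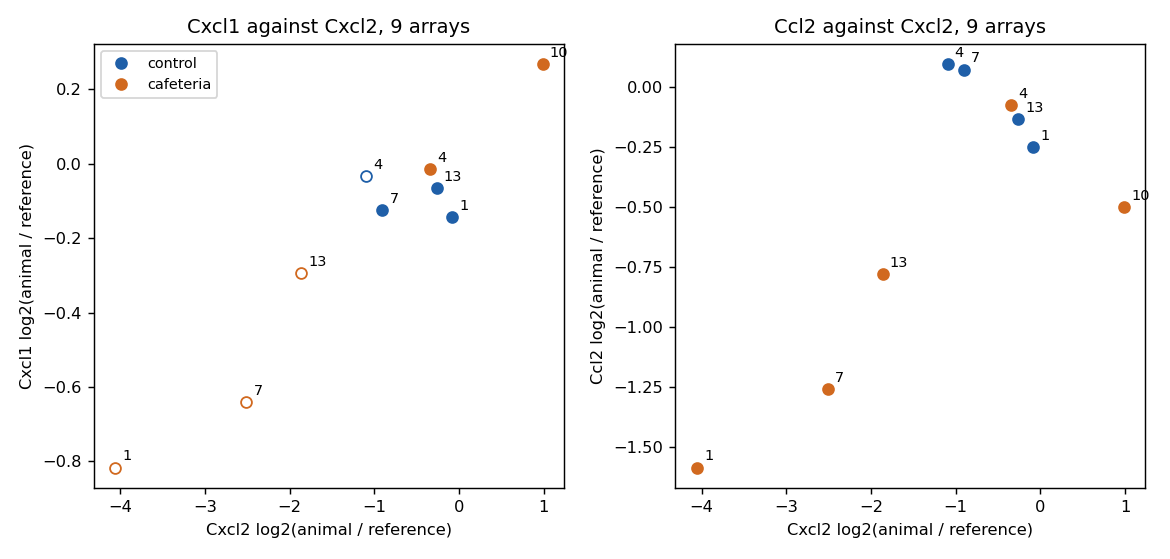
Log2 ratios of Cxcl1 (left) and Ccl2 (right) on the y axes against Cxcl2 on the x axes in 4 control and 5 cafeteria rats, with open points where the y-axis gene was not well above background. Cafeteria 1, 7 and 13 lie at the low end for all 3 genes, and cafeteria 10 is highest for Cxcl1 and Cxcl2 but at -0.50 for Ccl2.

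The genes whose profile was closest to that of Ccl2, by mean absolute difference of centred log2 ratios over the 9 animals among 10450 named genes, were Il1b at 0.16, C5ar1 at 0.23 and Slpi at 0.23. The mean absolute deviation of Ccl2 itself was 0.48. Il1b encodes the cytokine interleukin 1 beta, C5ar1 the receptor for complement C5a, and Slpi a secreted protease inhibitor. Il1b was 0.27 to 0.51 in controls, and -1.02 in cafeteria 1, 0.34 in cafeteria 4, -0.83 in cafeteria 7, 0.29 in cafeteria 10 and 0.11 in cafeteria 13. Slpi was 0.03 to 0.15 in controls, and -1.20, 0.19, -1.50, 0.08 and -0.87 in the cafeteria rats in the same order. As with Ccl2, cafeteria 1 and 7 were the lowest animals and cafeteria 4 lay near or within the control range. Such likeness follows largely from choosing the genes by closeness to Ccl2 over these animals.

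The genes closest to Cxcl2 were Fcnb (ficolin B, a lectin of myeloid cells) at 0.48, Fn1 (fibronectin) at 0.49 and Cd14 (the monocyte co-receptor for endotoxin) at 0.56, where the mean absolute deviation of Cxcl2 was 1.12. Cd14, which is also in the monocyte list, was -1.55 in cafeteria 1, -1.19 in cafeteria 7 and -0.64 in cafeteria 13. It was 0.82 in cafeteria 10, the highest animal, and between -0.14 and 0.40 in controls. Fcnb was -2.31, 0.64, -1.77, 0.73 and -1.28 in cafeteria rats 1, 4, 7, 10 and 13. All 3 genes had their lowest value in cafeteria 1 and their highest in cafeteria 10, as Cxcl2 did. They were chosen for closeness to Cxcl2 over the same animals, so shared extremes follow largely from the choice.

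**Figure D5:**
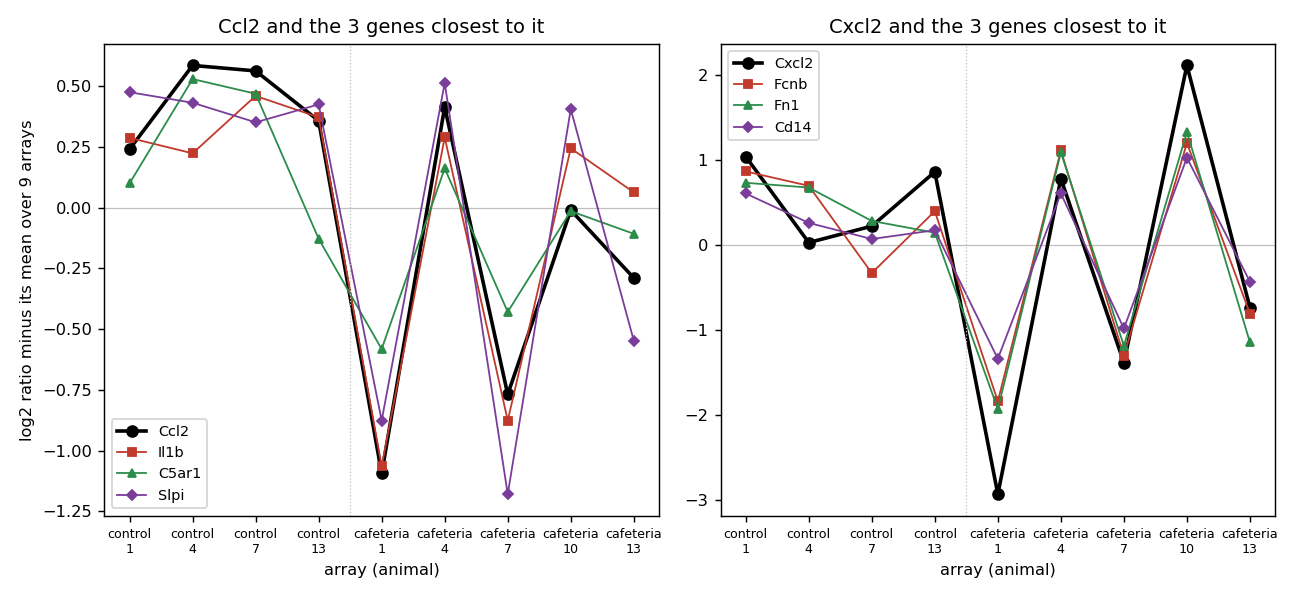
Log2 ratio minus its mean over the 9 animals (y axis) for Ccl2 and its 3 closest genes (left) and Cxcl2 and its 3 closest genes (right), by animal (x axis), with lines joining the points of a gene as a guide. Every gene shown dips in cafeteria 1 and cafeteria 7 and lies above its mean in cafeteria 4. The closest genes were chosen for likeness to Ccl2 or Cxcl2 over these same animals.

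Other genes of the chemokine system were counted from lists. Of 26 other ligands, 24 had a probe and 10 were tested, of which 4 had higher and 6 lower cafeteria means, with a median of -0.042. Over all probes 54.3% were higher and 45.7% lower. None of the 10 passed the adjusted threshold, and 1 had an unadjusted limma p under 0.05, against 4.4% of all probes. That was Ccl22, a ligand of Ccr4 made by dendritic cells and macrophages, at -0.35 (SE 0.13, adjusted p = 0.997). Ccl22 was 0.65 in control 1 and 0.01 to 0.08 in the other controls, and -0.25 to 0.02 in cafeteria rats. A second Ccl22 probe gave 0.068. Cxcl3, a further neutrophil attractant, was picked out with its values in view. The detected probe, well above background on 7 of 9 arrays, was -0.17 to -0.01 in controls and -0.50, -0.02, -0.37, 0.27 and -0.14 in cafeteria rats 1, 4, 7, 10 and 13, with a difference of -0.073 (SE 0.14). A second Cxcl3 probe was detected on 0 arrays.

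Of 23 chemokine receptors, 20 had a probe and 14 were tested, with 6 higher, 8 lower and a median of -0.056. The share of all probes that were lower was 45.7%. None had an unadjusted limma p under 0.05. The smallest p-values were those of Ccr4, the receptor of Ccl22 on T cells, at -0.28 (SE 0.14, limma adjusted p = 0.997) and Ccr10 at -0.33 (SE 0.17, limma adjusted p = 0.997). Cxcr2, the receptor of Cxcl1 and Cxcl2, and Xcr1, that of Xcl1, were below the filter. Ccr2, the receptor of Ccl2, differed by -0.16 (SE 0.22).

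Of 25 genes of the NF-kB pathway, 20 had a probe and 18 were tested, with 14 higher, 4 lower and a median of 0.081. The share of all probes that were higher was 54.3%. None had an unadjusted limma p under 0.05. By the brightest probe of each gene, the smallest were those of Il1b and Nfkb2, which encodes an NF-kB subunit. Il1b differed by -0.60 (SE 0.28, limma adjusted p = 0.997), with a second probe at -0.52. Nfkb2 differed by 0.28 (SE 0.14, limma adjusted p = 0.997), with a second probe at 0.026. By their brightest probes the other 16 genes, among them the subunits Nfkb1, Rel and Rela and the inhibitor Nfkbia, differed by -0.060 to 0.21. Second probes did not always give the same. They gave -0.18 for Nfkbiz (brightest probe -0.060), -0.078 for Rela (brightest probe 0.10) and -0.037 for Nfkbia (brightest probe 0.16).

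The material held the cell types of a PBMC preparation, together with platelet and red cell transcripts. All 13 T-cell and all 9 B-cell markers with a probe were detected, among them Cd3d and Cd3g, and Fcmr and Cd79b. Of 10 platelet markers with a probe, 9 were tested and all 9 had a lower cafeteria mean, where 45.7% of all probes were lower. Platelet means were 0.18 ± 0.64 (SD, n = 4) in control and -0.17 ± 0.53 (SD, n = 5) in cafeteria rats. Genes of red cell precursors (8 tested, among them Hbb and Car2) had means of -0.87 to -0.59 in controls and -0.50 to -0.02 in cafeteria rats, ranges that did not overlap. No marker of the 7 cell type lists passed the adjusted threshold. An unadjusted limma p under 0.05 was found for 6 of the 8 red cell genes on the higher side, for 3 of 15 cytotoxic T and NK and 1 of 9 B-cell markers on the higher side, and for 3 of 13 T-cell markers on the lower side. Over all probes 1.54% had such a p on the higher and 2.86% on the lower side. The groups did not overlap for 3 of the 8 red cell genes, against 1.26% of all probes. B-cell means were 0.26 apart by group at -0.12 ± 0.18 (SD, n = 4) and 0.14 ± 0.22 (SD, n = 5), and T-cell means were -0.02 ± 0.18 and -0.18 ± 0.20. The part of these markers in the ligand values was not tested. Between 58.8% and 66.7% of 43379 spots were well above background per array. Correlations of log2 ratios between arrays ranged from -0.16 to 0.57. Of probes with an unadjusted limma p under 0.05, 398 were higher and 738 lower; the split was 128 to 147 with median centring and 2198 to 374 on the authors' deposited values, where the median of all probes shifted by 0.13.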

How the data were processed

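Per the file headers, the deposited intensity of each spot in both dyes, its local background, its flags and a log10 ratio were made with Agilent Feature Extraction 9.5.1.1. The authors deposited a table of values read here as log2, since they follow the Cy5 signal (rank correlation 0.991 to 0.997 per array); how they were normalized before deposit is not given in the sources used here. Its array medians run from 9.40 to 9.69, and it fills 21466 of 45220 spots. From the intensities, normexp background correction (offset 50) and loess within arrays were run in limma 3.58.1 (R 4.3.3), control spots had weight 0, spots called outliers were left out and spots of a probe were averaged. Detection on an array meant at least 0.5 of a probe's spots well above background. Groups were compared with lmFit and eBayes, adjusted by Benjamini-Hochberg over 25808 probes; the fit was tested on simulated data. The brightest detected probe stood for a gene. Gene names came from the files and a RefSeq gene table, which named 19439 of 41012 probes. Named genes were the members, genes of the other-ligand, receptor and NF-kB lists with an unadjusted p under 0.05 or else the 2 with the smallest p, the 3 genes nearest to Ccl2 and to the most variable member, and the 2 brightest markers of each cell type; other receptors, NF-kB subunits, Cxcl3 and undetected genes were added by role after the values were seen. The members and lists were chosen with earlier results of these data known. Alternatives varied background, normalization, starting values, filters, slide, replicate block, weights and single animals. Probe positions are those of the files (rn4); exon and UTR annotation was not used here. Array number limits the precision.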

Additional observations from a re-analysis of the deposited data

Results flagged for a closer look

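Among 30 groups of per-array values, 1 held an array far from the others by Dixon's criterion, which chance meets in about 1 of 20 groups. The mean log2 ratio of the 7 neutrophil markers was -0.22 in control 1. The nearest control lay at 0.020 and the highest at 0.060, so that the gap made up 0.857 of the range. The Cxcl1 and Cxcl2 ratios of control 1 were -0.14 and -0.09.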

How the results depend on the processing

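No chemokine ligand passed the adjusted threshold under any of the alternatives tried. The Ccl2 difference stayed below 0, between -1.48 with Cy5 alone and -0.54 with array weights, with a limma adjusted p of 0.390 to 1.00 over these 13 settings, and between -0.98 and -0.60 when single animals were left out. The scanner log ratio gave -1.45 and the authors' deposited values -1.01. Array-wide, 2 probes passed, against 0 with no background correction, the scanner log ratio, Cy5 alone, median centring, the authors' values as deposited or centred, slide as a fixed block, the replicate block and array weights, and 0 to 2 when single animals were left out (1 without control 1 and without cafeteria 7). With slide as a fixed block, which rests on the pairs of slides 3 and 5, 2 members in place of 4 were higher. In that fit Ccl4 was -0.049, Ccl5 -0.036, Xcl1 -0.55 and the mean of cytotoxic T and NK cell markers -0.031. The Xcl1 difference was 0.027 with median centring, 0.11 on the authors' values, and -0.16 to 0.068 when single animals were left out (0.0054 without control 13, 0.068 without cafeteria 1, 0.053 without cafeteria 10). The erythroid marker difference was 0.72 on the authors' values. The causes were not tested. With the replicate block Ccl2 was -0.87 (SE 0.21, adjusted p = 0.987) and Xcl1 0.053. The labels do not say whether equal numbers pair the animals, and cafeteria 10 has no partner. Of the 4 same-numbered pairs, 1 had r over 0.1, and 0 controls correlated best with their own number. So few pairs cannot show whether the animals were paired. Of the correlations, added after the data were seen, Ccl4 with Ccl5 ran from 0.56 to 0.89 over the settings. In the main analysis it was 0.56 (exact permutation, adjusted p = 0.286), and it was highest with median centring (exact permutation, adjusted p = 0.0122). Ccl3 with Ccl6 was 0.73 in the main analysis (exact permutation, adjusted p = 0.136) and 0.34 without cafeteria 1 and control 1. It ran from 0.55 to 0.86 when single animals were left out, highest without cafeteria 7 (exact permutation, adjusted p = 0.0288). The highest value of each pair was picked from many settings and is no support for a relation. Cxcl1 and the low Ccl2 values rest on dim spots.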
